A study of Sus scrofa with 63 samples.

Results

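Liver RNA of HP offspring was compared between 188 dpn, the finished pig, and 1 dpn, the newborn piglet. The 32 arrays of these stages, 16 at each, were taken by their stage label out of 63 arrays in all, and 15 arrays of 28 dpn served to place the change within postnatal life. HP offspring are German Landrace pigs whose dams received a high protein diet throughout pregnancy, and this holds for both stages, so the comparison is one of age within 1 maternal diet. Each array held the liver of 1 animal, and the animals came as sib pairs. At 1 dpn the lightest and the heaviest piglet of a litter were taken and killed by injection of a sedative and an anaesthetic, whereas the animals of 28 dpn and 188 dpn had fasted overnight and were killed by electronarcosis and exsanguination. The mature animals had been reared by foster sows and weaned to standard feed, and their males were castrated early in life. Selection, rearing, feeding state, way of killing and age therefore cannot be told apart. The labels give no litter, so sibs entered the tests as separate samples.

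The newborn liver still carries traits of the fetal organ. It made blood cells before birth, secretes alpha-fetoprotein beside albumin, contains dividing hepatocytes and is fed by the fat and lactose of milk. The mature liver clears drugs and steroids through cytochromes P450 and conjugating enzymes, breaks down the amino acids of feed, makes bile acids and complement, and hosts resident macrophages and lymphocytes.

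Both stages carried the signature of hepatocytes. Albumin (ALB) lay from 15.41 to 16.46 at 1 dpn (median 16.02) and from 15.18 to 16.24 at 188 dpn (median 15.71), and TTR, TF, APOA1, SERPINA1, FGB, CPS1 and HNF4A were above the array background on all 32 arrays. Values are log2 signals of the array, where a step of 1 is a doubling, and they were scaled per array and not further. The median over all probe-sets of an array was 7.23 ± 0.10 (SD, n = 16) at 1 dpn and 6.72 ± 0.12 (SD, n = 16) at 188 dpn, and the background was 5.83 ± 0.32 and 5.64 ± 0.43, taken from 23 controls that match no transcript (their 95th percentile). The 3′ signal of actin exceeded its 5′ signal by 0.75 to 3.16 at 1 dpn and by 3.39 to 4.88 at 188 dpn, without overlap, while the same difference for GAPDH had means of 0.54 and 0.66 and that for RNAs added before labelling 0.94 and 0.99. Arrays correlated with a Pearson r of 0.85 to 0.91 within 1 dpn, 0.88 to 0.92 within 188 dpn and 0.79 to 0.87 between the stages (across probe-sets). The newborn arrays HP 25, HP 27 and HP 28 stood apart in cell cycle genes, and without them 9571 probe-sets were called in place of 9754.

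In the fit without covariates most of the tested probe-sets differed between the stages. Of 13248 probe-sets tested, 3653 rose (27.6%) and 6101 fell (46.1%) in limma's moderated test, the threshold being an adjusted p of 0.05 after Benjamini and Hochberg, so that 73.6% changed in either direction. With a change of at least 2-fold in addition, 1209 rose (9.13%) and 2997 fell (22.6%), and of changes of at least 8-fold 68 were rises and 215 were falls. The arrays of the stages did not overlap at all for 662 rising (5%) and 1188 falling probe-sets (8.97%), of which 244 and 438 had no single gene symbol. With 1 probe-set per gene, 5383 genes were tested, of which 74% changed, 1737 upward (32.3%) and 2244 downward (41.7%), and 6.65% and 8.4% of genes did not overlap in the upward and downward direction. The excess of falls depends on the scaling: rises made up 37.5% of the calls on the deposited values, 51.2% after quantile normalization and 55.5% after centring each array on its median, as the median change of all probe-sets moved from −0.22 to 0.02 and 0.11. The median change of all genes was −0.10, and medians of gene groups are given relative to it. Counts of rises and falls in gene groups are to be read beside the 32.3% and 41.7% of all genes. Small changes near 0 are decided by the scaling: of the genes given below as not passing, ACADM, APOA1, APOE, ARG1, C3, CPS1, FGB, FGG, GRB10, OTC, PECAM1, POR and SERPINA1 rose after centring, APOA1 and PECAM1 rose after quantile normalization, and APOE, CPS1, FGB and GLUL fell after it. The actin 3′ to 5′ difference of each array goes along with stage. With it as a covariate, 4828 probe-sets (36.4%) were called, 1630 rises and 3198 falls. Counts under this covariate are given beside the groups. Of 247 probe-sets named in the text, 172 kept their side of the threshold under it, and those of them that were called kept their direction. Of the others called without it, 63 kept the direction without passing. A further 11 changed sign without passing (ASS1, CDKN1B, CYP1A1, DIO1, HAMP, KDR, KRT19, PDK4, PPARA, SC5D and TTR). GLUL, not called without the covariate, passed with it (−1.82, adjusted p = 0.00401). Signs were not compared for probe-sets called neither time.

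Enzymes of drug, steroid and fructose metabolism had the largest rises among 378 genes that did not overlap and were above background in both stages. CYP2A19, the porcine P450 that clears skatole, lay from 5.73 to 9.18 at 1 dpn (median 6.88) and from 14.56 to 15.75 at 188 dpn (median 15.25). The lowest mature liver exceeded the highest newborn liver by more than the whole newborn range, and the gene rose by 8.26 (SE 0.19, adjusted p = 1.57e-27). CYP3A29, a member of the CYP3A family that oxidises many drugs and steroids, ran from 5.20 to 10.06 at 1 dpn (median 6.82) and from 14.10 to 15.20 at 188 dpn (median 14.67) and rose by 7.49 (SE 0.36, adjusted p = 2.28e-18). Ketohexokinase (KHK), which phosphorylates fructose, was near background in newborns, with signals from 4.97 to 7.53 at 1 dpn (median 6.87) and from 12.25 to 13.09 at 188 dpn (median 12.87), and rose by 6.08 (SE 0.17, adjusted p = 5.45e-25). CYP3A46 rose by 5.67 and CYP3A39 by 3.84, and neither overlapped between the stages. The folate receptor FOLR2 of liver macrophages lay from 8.50 to 10.93 at 1 dpn (median 9.82) and from 14.41 to 14.97 at 188 dpn (median 14.70) and rose by 4.92 (SE 0.18, adjusted p = 1.53e-21). Among the 12 largest rises were also CCL19, a chemokine that draws lymphocytes (4.78), JCHAIN, the joining chain of polymeric immunoglobulins (3.91), OGDHL, a relative of the 2-oxoglutarate dehydrogenase subunit (3.78), RARRES1, a retinoid responsive gene (3.70), and LOC100152327, known here by its locus only (4.38). EF1ALPHA, annotated as the elongation factor that brings aminoacyl-tRNA to the ribosome, entered with a probe-set that rose by 4.58, but its other 5 tested probe-sets changed by −0.74 to 0.81.

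**Figure D1:**
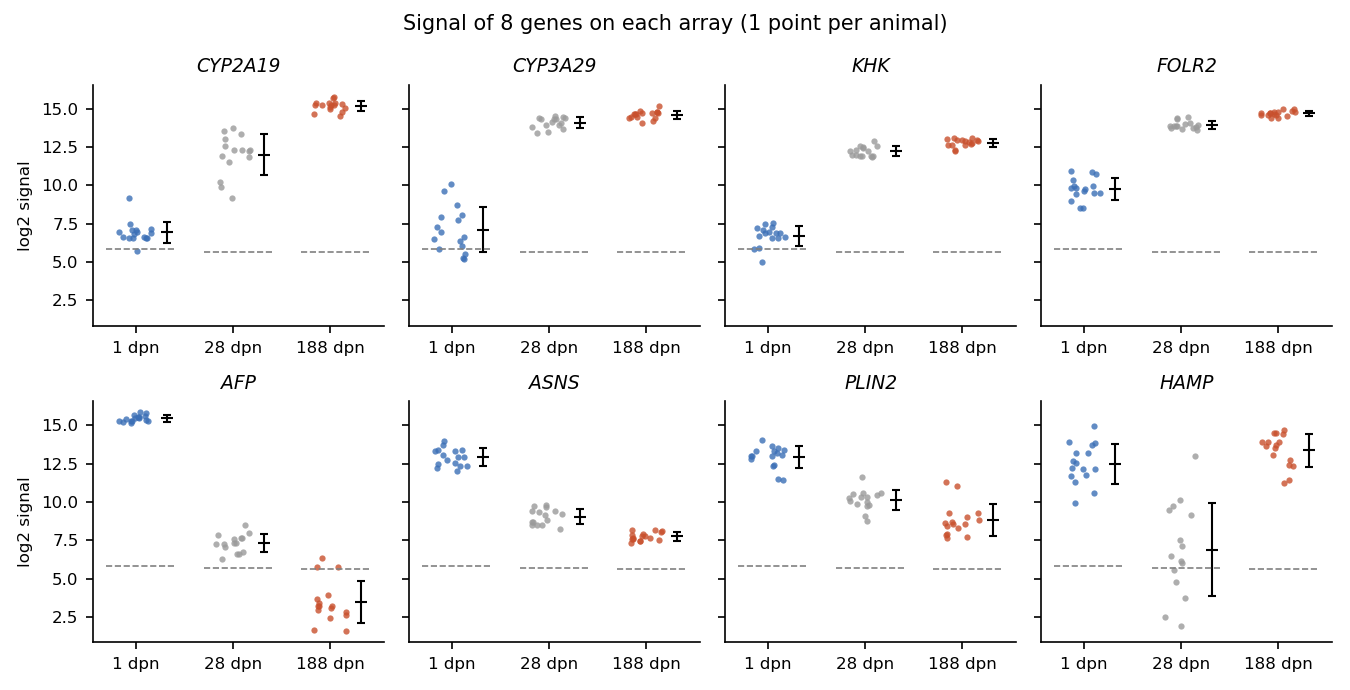
Log2 signal of 8 genes on every array of 1 dpn, 28 dpn and 188 dpn; each point is 1 animal, the bar beside it gives the mean ± SD and the dashed line the mean background of the stage. CYP2A19, CYP3A29, KHK and FOLR2 rose and AFP, ASNS and PLIN2 fell, with PLIN2 as the gene whose highest mature array (11.28) came closest to the lowest newborn array (11.40). HAMP overlaps between 1 dpn and 188 dpn and lies lower at 28 dpn.

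Among the largest falls were genes of amino acid synthesis, of the secretory pathway and of lipid droplets. Asparagine synthetase (ASNS) lay from 11.99 to 13.96 at 1 dpn (median 12.92) and from 7.31 to 8.17 at 188 dpn (median 7.71) and fell by 5.16 (SE 0.16, adjusted p = 3.6e-24). ALDH18A1, the enzyme that opens proline synthesis, fell by 4.10, and SLC25A33, a mitochondrial carrier of pyrimidine nucleotides, by 5.15. PLIN2, the coat protein of lipid droplets, lay from 11.40 to 14.06 at 1 dpn (median 13.05) and from 7.63 to 11.28 at 188 dpn (median 8.58) and fell by 4.12 (SE 0.30, adjusted p = 9.59e-14). TMED3, a cargo receptor between ER and Golgi, fell by 4.36 and LOC100519808 by 4.58. For several of the 12 largest falls the probe-sets of the gene disagreed in size. FNTA, a subunit of protein farnesyltransferase, fell by 4.87 in 1 probe-set and by 0.41 in the other, and HSPA9, the mitochondrial HSP70, by 4.02 in 1 and by 0.65 and 0.58 in the other 2. The ER disulphide isomerase PDIA4 fell by 3.98, 2.55 and 0.66, and the clathrin heavy chain CLTC fell by 3.97 and 1.56. Of 3 probe-sets of MTHFD1, which handles folate-bound carbon units, 1 fell by 4.28, 1 fell by 2.07 and the brightest rose by 0.49. Over 1352 genes with several tested probe-sets the changes of a gene spanned a median of 0.74, 144 genes (10.7%) spanned more than 2, and 181 genes were called in both directions.

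Some probe-sets crossed the detection limit. AFP, the fetal albumin, lay from 15.15 to 15.87 at 1 dpn (median 15.44) and from 1.55 to 6.31 at 188 dpn (median 3.19). It was above background on all newborn arrays and on 1 of 16 mature arrays, and it fell by 11.98 (SE 0.33, adjusted p = 2.71e-25), or by 9.78 with signals set to at least the background. S100G, a calcium-binding protein of the calbindin family, ran from 10.65 to 15.14 at 1 dpn (median 13.77) and from 1.63 to 7.63 at 188 dpn (median 3.06) and was above background on 4 mature arrays. Its change was a fall of 9.52 in this probe-set, or of 7.47 with the background as floor, and of 2.41 in its other probe-set. EPRS, which charges tRNA with glutamate and proline, fell by 5.23 (with the floor it fell by 4.47) in a probe-set above background on 6 mature arrays, and by 2.08 and 0.57 in its other 2. With the floor, the peptidase ENPEP fell by 3.69, the exchange factor ARHGEF6 fell by 3.56, the PCNA partner PCLAF fell by 3.54, the reductase CBR2 fell by 3.52 and the membrane protein MAL fell by 3.45, each in a probe-set above background on 3 to 6 mature arrays. The other probe-set of ARHGEF6 was above background on all mature arrays and fell by 3.47, and those of EPRS were likewise above it on all. In all, 94 genes had a called probe-set above background on every newborn and on fewer than 8 mature arrays, and 23 genes had one with the reverse pattern, whatever their other probe-sets showed. Over all probe-sets a mean of 71.1% were above background on newborn and 66.1% on mature arrays. The part of the array scaling in this imbalance was not tested.

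The 8 largest of those 23, with the background as floor, included genes of lymphocytes. The immunoglobulin heavy chain gene LOC396781 lay from 1.92 to 7.91 at 1 dpn (median 4.09) and from 9.23 to 12.79 at 188 dpn (median 11.22), was above background on 2 newborn and on all mature arrays, and rose by 6.89 (SE 0.46, adjusted p = 1.16e-14), or by 5.10 with the background as floor. Granulysin (GNLY), a pore-forming protein of cytotoxic lymphocytes, was not above background on any newborn array and rose by 5.28 (SE 0.24, adjusted p = 4.41e-19), which is at least 10.9-fold against the background. LOC100621559, a locus without a descriptive symbol, was likewise not above background on any newborn array in 1 probe-set, where the mature level was at least 6.92-fold higher, with rises of 3.21 to 4.79 in its 6 probe-sets. DDO, which oxidises D-aspartate, rose by 5.84, or by 3.93 with the floor, and was above background on 2 newborn arrays. With the floor, SLC17A1, a phosphate and urate transporter, rose by 3.45, OVGP1, an oviduct glycoprotein, by 3.87 and the membrane protein PLLP by 2.37, with 3, 5 and 4 newborn arrays above background.

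Most genes of the fetal liver group fell, and IGF2 held a probe-set that rose. Of 6 tested genes 5 fell and 0 rose, with a median of −3.53, or −2.85 with the background as floor (4 fell with the actin covariate). PEG10, a paternally expressed gene derived from a retrotransposon, lay from 6.26 to 14.85 at 1 dpn (median 13.87) and from 2.38 to 6.76 at 188 dpn (median 5.54). A single newborn array lay within the mature range, and the gene fell by 7.69 (SE 0.60, adjusted p = 3.18e-13). PEG3, another paternally expressed gene, fell by 3.45 and GPC3, a proteoglycan that binds growth factors, by 0.91, whereas GRB10, an adaptor that restrains insulin receptor signaling, changed by −0.049 (SE 0.12, adjusted p = 0.72). IGF2, the fetal growth factor, was represented by 11 tested probe-sets. The brightest lay from 13.98 to 15.04 at 1 dpn (median 14.55) and from 10.41 to 11.01 at 188 dpn (median 10.78) and fell by 3.81 (SE 0.087, adjusted p = 1.57e-27). In all 9 of the 11 fell, by 0.44 to 4.18. One probe-set went the other way. It lay from 2.64 to 4.01 at 1 dpn (median 3.29) and from 7.91 to 9.06 at 188 dpn (median 8.49), was above background on none of the newborn, 9 of 15 arrays at 28 dpn and all mature arrays, and rose by 5.18 (SE 0.13, adjusted p = 1.86e-26), at least 6.2-fold against the background. All 11 are annotated to the 1 gene, and the files do not say which transcripts each one matches.

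**Figure D2:**
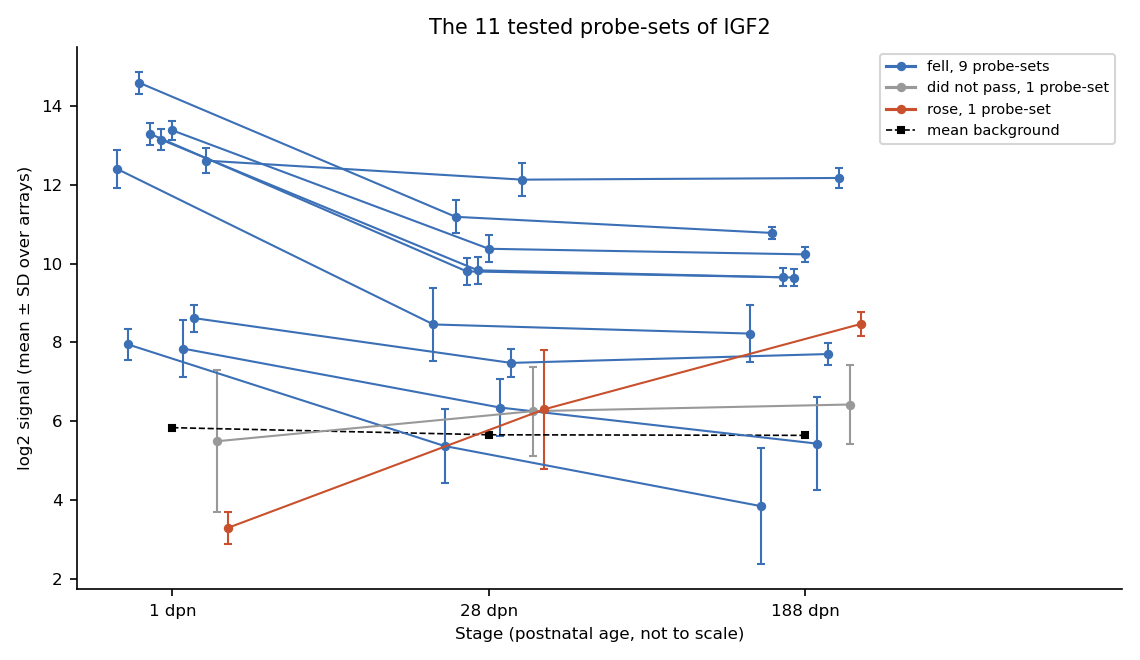
Log2 signal of the 11 tested IGF2 probe-sets at 1 dpn (n = 16), 28 dpn (n = 15) and 188 dpn (n = 16), as mean ± SD over arrays, with the mean background as a dashed line. Blue probe-sets fell, the red one rose from below background to 8.47, and the grey one did not pass.

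In the growth hormone axis IGF1 rose where most IGF2 probe-sets fell. Of 13 genes 4 rose and 4 fell, 30.8% each, against 32.3% and 41.7% of all genes (median 0.15; 3 and 1 with the actin covariate). IGF1, the growth factor that growth hormone induces in liver, lay from 6.33 to 9.93 at 1 dpn (median 7.86) and from 8.89 to 10.22 at 188 dpn (median 9.84) and rose by 1.87 (SE 0.25, adjusted p = 6.9e-08). IGFALS, the subunit that holds IGF in the circulating complex, rose by 2.55 from a newborn level that was above background on 4 arrays, and GHR, the growth hormone receptor, rose by 1.09. IGFBP6 rose by 1.51. The receptors IGF2R and IGF1R fell by 1.34 and 0.82, the binding protein IGFBP2 fell by 0.74 (not passing after centring or with the actin covariate), and IGFBP1 changed by 0.56 (SE 0.44, adjusted p = 0.248).

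Drug metabolism rose as a group. Among 35 genes of cytochromes P450 and other phase I enzymes 24 rose, 4 fell and 7 did not pass, with a median of 0.97 (12 and 2 with the actin covariate). The mean log2 signal of the group ran from 10.51 to 11.51 on newborn and from 12.02 to 12.68 on mature arrays, without overlap. Beside the CYP3A and CYP2A19 genes, CYP2J34 rose by 4.43, CYP2C49 by 2.40, CYP2B22 by 2.35 and CYP3A22 by 2.23. CYP2E1, the ethanol oxidising P450, was already high in newborns and lay from 13.33 to 15.30 at 1 dpn (median 14.15) and from 14.99 to 15.90 at 188 dpn (median 15.35), and rose by 1.21. The epoxide hydrolases EPHX1 and EPHX2 rose by 2.00 and 1.28, and the carboxylesterase CES1 by 1.56. POR, the reductase that feeds electrons to all microsomal P450s, changed by −0.0021 (SE 0.13, adjusted p = 0.99). Against the group, the short-chain dehydrogenase DHRS4 fell by 3.16 (SE 0.21, adjusted p = 1.07e-14) without overlap and CYP1A1, the P450 induced through the aryl hydrocarbon receptor, fell by 1.81.

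Conjugating enzymes rose in 12 of 16 genes and fell in 3 (median 1.03; 5 and 3 with the actin covariate). The phenol sulfotransferase SULT1A3 rose by 2.86, the glutathione transferase GSTA1 by 2.22 and the methyltransferase INMT by 1.86, while the oestrogen sulfotransferase SULT1E1 fell by 1.18 and GSTA4 by 1.48. In hormone handling 12 of 21 genes rose and 4 fell (median 0.52; 5 and 1 with the actin covariate). HSD3B1, a 3-beta-hydroxysteroid dehydrogenase, lay from 7.52 to 9.64 at 1 dpn (median 8.40) and from 11.03 to 12.92 at 188 dpn (median 11.82) and rose by 3.52 (SE 0.20, adjusted p = 1.57e-16). Corticosteroid-binding globulin (SERPINA6) lay from 10.05 to 12.36 at 1 dpn (median 11.00) and from 12.48 to 14.87 at 188 dpn (median 14.24) and rose by 2.99 (SE 0.24, adjusted p = 6.37e-13). HSD11B1, which regenerates cortisol, rose by 1.16, while DIO1, which activates and clears thyroid hormone, fell by 1.63 and the glucocorticoid receptor co-chaperone FKBP5 by 1.04.

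Transcription factors and nuclear receptors rose and fell at shares near those of all genes (32.3% and 41.7%). Of 28 genes 9 rose and 14 fell (median −0.33; 5 and 3 with the actin covariate). HNF4A, a master factor of hepatocytes, rose by 0.77, CEBPB by 1.12 and CEBPD, an acute phase factor of the same family, by 1.90, while CEBPA changed by −0.15 (SE 0.21, adjusted p = 0.521). The retinoic acid receptor RARB fell by 2.81, RORA, a receptor of the clock, by 2.20, PPARA, the regulator of fatty acid oxidation, by 2.00 (above background on 8 mature arrays) and the pregnane X receptor NR1I2, a sensor that induces CYP3A genes, by 1.52. The balance of this group depends on scaling and level, since 9 rose and 9 fell after quantile normalization, 10 rose and 8 fell after centring, and its median was 0.22 with the filter at the 75th percentile.

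Amino acid catabolism rose in most of its genes, and amino acid synthesis fell in most of its genes. Of 32 genes of amino acid catabolism 23 rose and 2 fell, with a median of 1.01 (10 and 1 with the actin covariate). SHMT1, the cytosolic serine hydroxymethyltransferase, lay from 10.01 to 11.81 at 1 dpn (median 10.98) and from 13.36 to 14.04 at 188 dpn (median 13.62). The stages did not overlap, and SHMT1 rose by 2.68 (SE 0.12, adjusted p = 7.95e-19). SDS, which deaminates serine, rose by 2.23, HAAO of tryptophan breakdown by 1.96, GNMT, which disposes of methyl groups, by 1.89, MAT1A, the hepatic methionine adenosyltransferase, by 1.52 and OAT of ornithine breakdown by 1.77. HPD, which degrades tyrosine products, went against the group: it lay from 12.66 to 14.88 at 1 dpn (median 13.65) and from 10.67 to 11.40 at 188 dpn (median 11.14) and fell by 2.55 (SE 0.18, adjusted p = 2.11e-14). Of the 16 genes of branched-chain amino acid degradation 10 rose and 4 fell (median 0.52; 5 and 2 with the actin covariate), among them HSD17B10 (rise of 1.34) and IVD (rise of 1.19) and, on the other side, the dehydrogenase subunit DLD (fall of 1.01) and BCAT1 (fall of 0.56, not passing after quantile normalization or centring).

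Most genes of the urea cycle did not pass the test on the deposited values. Of 8 genes 3 rose and 0 fell (median 0.32; 0 and 1 with the actin covariate). After quantile normalization 3 rose and 2 fell, and after centring 6 rose and 0 fell. CPS1, the entry enzyme, lay from 13.36 to 15.37 at 1 dpn (median 14.42) and from 14.22 to 14.99 at 188 dpn (median 14.47), with a change of 0.048 (SE 0.15, adjusted p = 0.774), and OTC and ARG1 changed by 0.26 (SE 0.18, adjusted p = 0.188) and 0.18 (SE 0.21, adjusted p = 0.449). ASS1 and ASL, the 2 middle steps, rose by 0.51 and 0.76, and RHBG, an ammonia channel, by 1.24. Glutamine synthetase (GLUL) did not pass in its brightest probe-set, at −0.41 (SE 0.19, adjusted p = 0.0539), and fell by 3.40 in its other one. The brightest one lay close to the threshold. It passed as a fall after quantile normalization (−0.74, adjusted p = 0.00091), in the rank-sum test (adjusted p = 0.0417) and with the actin covariate (−1.82, adjusted p = 0.00401). It did not pass with array weights.

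Genes of amino acid synthesis and tRNA charging, many of them targets of the stress factor ATF4, fell in 16 of 24 cases and rose in 3 (median −0.62; 6 and 1 with the actin covariate). Beside ASNS and ALDH18A1, the serine enzyme PSPH fell by 2.90, the proline enzyme PYCR1 fell by 2.33, the asparaginyl-tRNA synthetase NARS by 1.95 and the glycyl-tRNA synthetase GARS by 1.33. PSAT1, the middle step of serine synthesis, rose by 1.56, opposite to PHGDH and PSPH before and after it, of which PHGDH fell by 1.26. ATF4 itself fell by 0.44, which did not pass after centring or with the actin covariate, and DDIT3 and ATF3 changed by 0.037 (SE 0.20, adjusted p = 0.872) and −0.077 (SE 0.25, adjusted p = 0.791).

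Chaperones of the ER fell as well. Of 38 genes of heat shock proteins and ER chaperones 27 fell and 8 rose (median −0.69; 19 and 6 with the actin covariate). HSPA13, an HSP70 relative of the ER, lay from 9.61 to 12.29 at 1 dpn (median 10.97) and from 4.93 to 8.38 at 188 dpn (median 7.30) and fell by 3.95 (SE 0.29, adjusted p = 1.13e-13). DNAJB11, an ER co-chaperone, fell by 2.75, CRELD2 fell by 2.58, HYOU1 fell by 2.15, the ER HSP90 (HSP90B1) by 1.91 and HSPA5, the central ER chaperone BiP, by 1.50. Among the members that rose were the small heat shock proteins HSPB8 (rise of 2.11) and CRYAB (1.88), the cochaperone BAG3 (1.30) and the inducible HSP70.2 (1.27), and CALR, an ER lectin, which rose by 0.90.

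**Figure D3:**
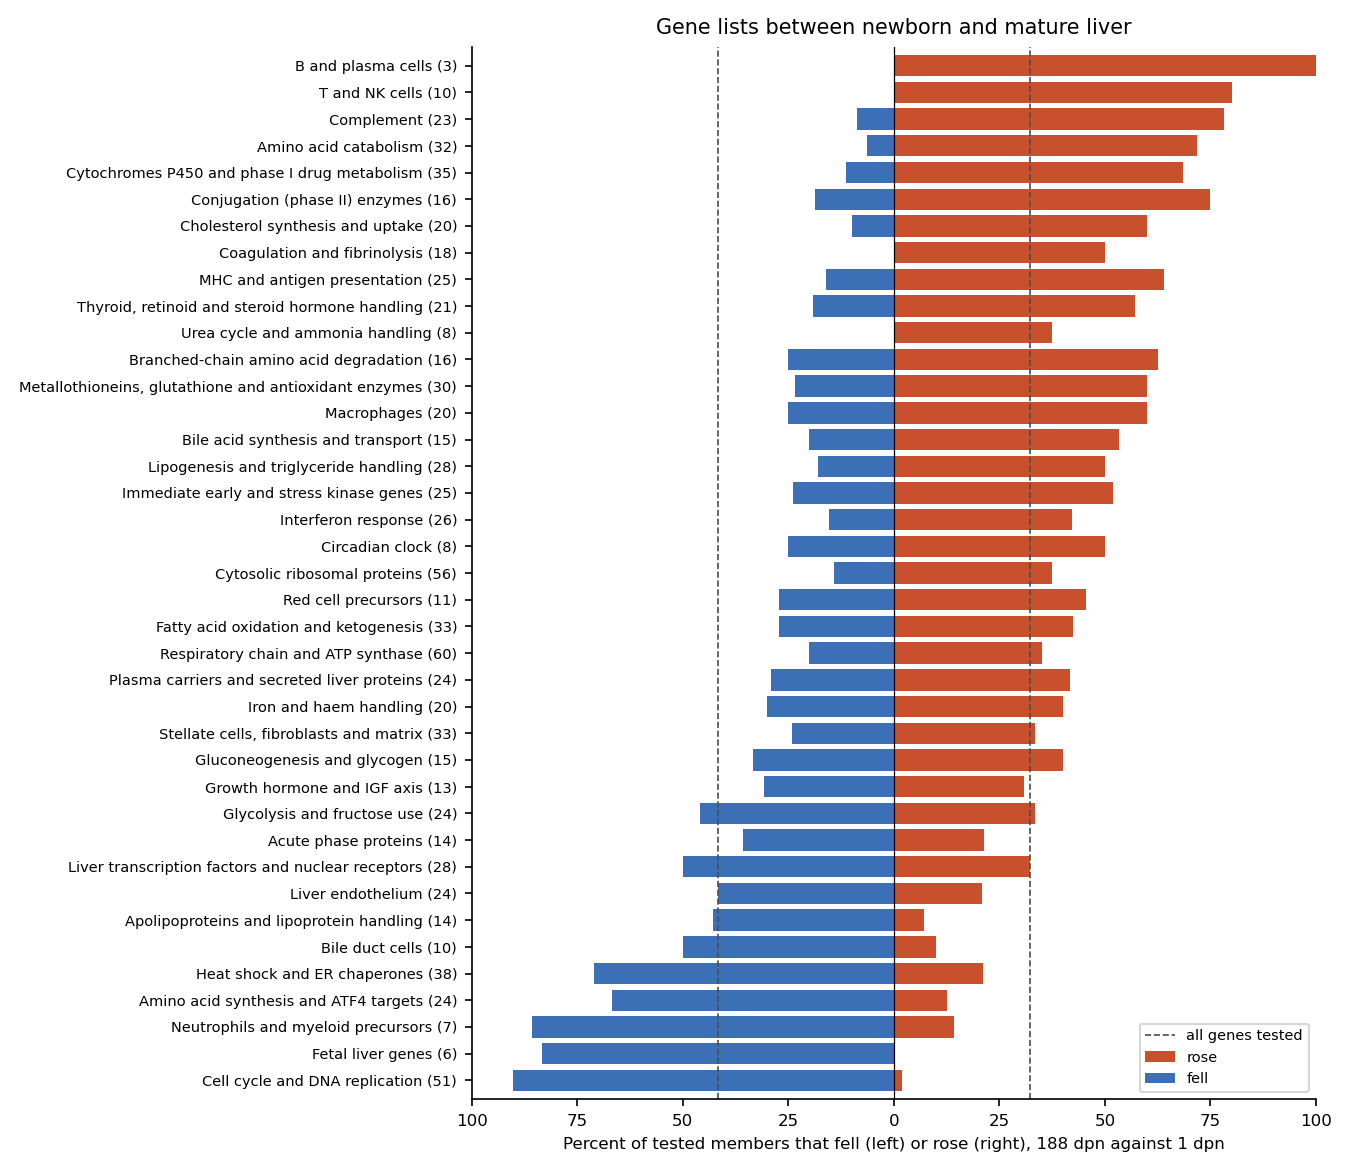
Percent of the tested members of each of 39 gene lists that fell (bars to the left) or rose (bars to the right) between 1 dpn and 188 dpn at an adjusted p under 0.05, with the number of tested members in brackets and dashed lines at the shares of all genes (32.3% rose, 41.7% fell). Lymphocyte, complement, amino acid catabolism and P450 lists stand at the top, and cell cycle, fetal liver, neutrophil, amino acid synthesis and chaperone lists at the bottom.

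In carbohydrate use KHK had by far the largest change. Of 24 genes of glycolysis and fructose use 8 rose (33.3%) and 11 fell (45.8%), near the 32.3% and 41.7% of all genes. After centring 13 rose and 8 fell (median 0.076; 3 and 3 with the actin covariate). LDHB, a lactate dehydrogenase subunit, fell by 1.24, SLC2A8 and SLC2A2, transporters of hexoses, by 1.45 and 0.86, and LDHA by 0.72, while PDK4, the kinase that closes pyruvate dehydrogenase in fasting, rose by 1.34. Among 15 genes of gluconeogenesis and glycogen 6 rose (40.0%) and 5 fell (33.3%), against 3 and 6 after quantile normalization (median −0.12; 2 and 3 with the actin covariate). The cytosolic PEP carboxykinase PCK1 lay from 12.44 to 14.60 at 1 dpn (median 13.53) and from 14.33 to 15.34 at 188 dpn (median 14.83) and rose by 1.37 (SE 0.14, adjusted p = 9.92e-11). The glucose 6-phosphate transporter SLC37A4 rose by 1.41, while the glycogen primer GYG1 fell by 1.11 and the coactivator PPARGC1A by 1.08.

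Genes of fatty acid oxidation moved in both directions. Of 33 genes 14 rose and 9 fell (median 0.36; 5 and 9 with the actin covariate). The falls took in the acyl-CoA synthetases ACSL4, ACSL3, ACSL5 and ACSL1, by 2.74, 2.08, 1.04 and 0.66, and enzymes of long chains, ACADVL (1.02), HADHA (0.95) and HADHB (0.87). The rises took in the matrix enzymes ACAA2 (2.69), ECI1 (2.16), ACADS (1.44), ECHS1 (1.24) and HADH (0.91). CPT1A, the gate of mitochondrial import, changed by −0.12 (SE 0.26, adjusted p = 0.681), and ACADM, the medium-chain dehydrogenase, by 0.26 (SE 0.13, adjusted p = 0.0615).

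Lipid synthesis rose in part. Of 28 genes of lipogenesis and triglyceride handling 14 rose and 5 fell (median 0.47; 8 and 2 with the actin covariate). LPIN1, a phosphatidate phosphatase and coregulator, lay from 6.96 to 8.54 at 1 dpn (median 7.57) and from 9.02 to 12.43 at 188 dpn (median 10.51) and rose by 3.06 (SE 0.23, adjusted p = 2.16e-13). DGAT2, the last step of triglyceride synthesis, rose by 2.38, ME1, a source of NADPH, by 1.69, fatty acid synthase (FASN) by 1.45 and the desaturase SCD by 1.26. Beside PLIN2 the hepatic lipase LIPC fell by 1.78 and MTTP, which loads lipoproteins with lipid, by 0.82. Cholesterol genes rose in 12 of 20 cases and fell in 2 (median 1.09), and with the actin covariate 3 rose and none fell (median 0.11). MSMO1, a demethylase of sterols, spread widely and lay from 8.16 to 13.89 at 1 dpn (median 10.87) and from 12.45 to 14.48 at 188 dpn (median 13.89), and rose by 2.61 (SE 0.40, adjusted p = 7.49e-07). SC5D rose by 1.78, SREBF2, the transcription factor of the pathway, by 1.56 and INSIG1, its retention partner, by 1.89, while INSIG2 fell by 1.27. With the actin covariate MSMO1, SC5D, INSIG1 and INSIG2 did not pass, with changes of 0.68, −0.0033, 0.0023 and −0.66.

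Bile acid genes rose in 8 of 15 and fell in 3 (median 0.39; 3 and 4 with the actin covariate). CYP7A1, the rate-limiting enzyme of bile acid synthesis, lay from 0.43 to 9.61 at 1 dpn (median 5.76) and from 4.58 to 10.19 at 188 dpn (median 8.55), overlapped widely and rose by 2.48 (SE 0.65, adjusted p = 0.000949), and 7 newborn and 13 mature arrays were above background. CYP27A1, a sterol hydroxylase, rose by 1.65 and SLC10A1, the uptake carrier of bile acids, by 1.16, whereas the export pumps ABCB11, ABCB1 and ABCC2 fell by 1.88, 1.66 and 1.16. Apolipoproteins and their handling fell in 6 of 14 genes (42.9%), near the 41.7% of all genes, and rose in 1 (7.1%, against 32.3%). After centring 3 fell and 7 rose (median −0.053; 3 and 1 with the actin covariate). APOB fell by 0.75 and APOF rose by 2.19. APOA1 and APOE changed by 0.016 (SE 0.091, adjusted p = 0.879) and −0.10 (SE 0.095, adjusted p = 0.325).

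Complement rose as a group, while many abundant plasma proteins stayed within small changes. Of 23 complement genes 18 rose and 2 fell (median 1.32; 8 and 0 with the actin covariate). MBL2, the lectin that starts the lectin pathway, rose by 2.66, C8G of the membrane attack complex by 2.37, C4A by 1.98, C2 by 1.88 and the proteases C1R and C1S by 1.73 and 1.22, whereas C3 changed by 0.042 (SE 0.10, adjusted p = 0.718) and C5 fell by 0.69. After centring C3 rose by 0.38 and C5 did not pass. Of 18 coagulation genes 9 rose and 0 fell, against 6 and 4 after quantile normalization and 16 and 0 after centring (median 0.34; 2 and 1 with the actin covariate). HRG rose by 1.38 and the anticoagulant zymogen PROC by 1.24, while the fibrinogen chains FGB and FGG changed by 0.0074 (SE 0.090, adjusted p = 0.946) and −0.045 (SE 0.083, adjusted p = 0.638). Plasma carriers rose in 10 and fell in 7 of 24 genes, against 8 and 9 after quantile normalization and 7 and 7 without HP 25, HP 27 and HP 28 (median 0.16; 2 and 1 with the actin covariate). Apart from AFP and SERPINA6 the changes were small in the carriers of high level, as ALB fell by 0.36 (not passing after centring, at −0.024, or with the actin covariate), TTR rose by 0.42 and SERPINA1 changed by −0.0036 (SE 0.089, adjusted p = 0.973). Among 14 acute phase genes 3 rose and 5 fell, against 8 and 1 after centring (median 0.072; 3 and 1 with the actin covariate). C-reactive protein (CRP) lay from 9.68 to 14.05 at 1 dpn (median 11.95) and from 13.30 to 15.35 at 188 dpn (median 14.78) and rose by 2.84 (SE 0.30, adjusted p = 3.05e-10), and SAA2, a serum amyloid A, fell by 1.24.

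In iron and haem handling 8 of 20 genes rose (40.0%) and 6 fell (30.0%), against 32.3% and 41.7% of all genes (median 0.32; 3 and 2 with the actin covariate). ALAD, an early enzyme of haem synthesis, lay from 10.54 to 12.25 at 1 dpn (median 11.45) and from 13.61 to 14.38 at 188 dpn (median 14.02) and rose by 2.61 (SE 0.15, adjusted p = 1.37e-16). The biliverdin reductase BLVRA rose by 1.86 and the haem oxygenase HMOX1 by 1.03, while IREB2, a sensor of cellular iron, fell by 1.75 and the iron importer SLC11A2 by 1.13. Of 30 antioxidant genes 18 rose and 7 fell (median 0.61; 6 and 2 with the actin covariate). The secreted glutathione peroxidase GPX3 lay from 7.54 to 9.45 at 1 dpn (median 8.41) and from 10.28 to 12.12 at 188 dpn (median 11.38) and rose by 2.91 (SE 0.19, adjusted p = 2.98e-15), and the peroxiredoxin PRDX6 rose by 2.80, both without overlap. GPX7, a peroxidase of the ER, fell by 3.98.

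Genes of cell division fell almost throughout. Of 51 genes of cell cycle and DNA replication 46 fell, 1 rose and 4 did not pass, with a median of −1.77 (39 and 0 with the actin covariate). RRM2, the regulated subunit of ribonucleotide reductase, lay from 7.29 to 12.38 at 1 dpn (median 11.15) and from 4.48 to 7.43 at 188 dpn (median 6.48) and fell by 4.15 (SE 0.45, adjusted p = 6.31e-10). The cyclin CCNB1 lay from 6.33 to 11.39 at 1 dpn (median 9.30) and from 1.66 to 7.16 at 188 dpn (median 5.76) and fell by 4.23 (SE 0.55, adjusted p = 2.92e-08), and topoisomerase TOP2A fell by 3.91. Both were above background on 6 mature arrays. The replication gene MCM4 fell by 2.66 and PCNA, the sliding clamp, by 2.01. The inhibitor CDKN1B was the 1 gene that rose, by 0.48. Newborn livers were uneven: the mean log2 signal of the list ran from 7.50 to 9.78 over the newborn arrays (median 9.24) and from 6.86 to 7.42 over the mature arrays (median 7.09). The 3 lowest newborn arrays, HP 25, HP 27 and HP 28, nearly reached the mature range. Without them 48 genes fell and the median was −2.06. They stood apart by their low level in these same genes, so a larger fall without them follows from the choice.

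Markers of lymphoid cells rose, and most of those of neutrophils fell. In bulk tissue fewer cells of a type and less RNA per cell cannot be told apart. Of 10 T and NK cell genes 8 rose and 0 fell (median 1.55, or 1.17 with the background as floor; 7 and 0 with the actin covariate), and without a filter on level 11 of 18 rose and 1 fell. The filter admits genes that are high in the mature liver alone, so the count over tested genes is a description. The mean log2 signal of the list ran from 5.34 to 6.80 and from 7.64 to 8.59, without overlap. CD8A, the coreceptor of cytotoxic T cells, rose by 3.15, CD247, the zeta chain of the T cell receptor, by 2.46, the chemokine CCL5 by 2.11 and CD3D, a defining T cell gene, by 1.37. The 3 tested genes of B and plasma cells rose (median 4.01; 3 and 0 with the actin covariate), against 4 of 5 without the filter (median 1.86), with a mean log2 signal from 5.49 to 8.77 and from 10.27 to 11.76. SDC1 among them is also expressed by hepatocytes, rose by 1.58 in its brightest probe-set and fell by 1.56 in another. Of 20 macrophage genes 12 rose and 5 fell (median 0.97; 8 and 1 with the actin covariate). Beside FOLR2, the Fc receptor FCGR3A rose by 1.66, the adaptor TYROBP by 1.66 and the Kupffer cell receptor VSIG4 by 1.14, while the scavenger receptors MARCO and CD163 fell by 1.98 and 1.17. Neutrophil and myeloid precursor genes fell in 6 of 7 and rose in 1 (median −1.41; 11 of 13 and 1 without the filter), and none passed with the actin covariate. S100A9, a subunit of calprotectin, lay from 7.67 to 11.46 at 1 dpn (median 9.95) and from 6.15 to 9.26 at 188 dpn (median 7.69) and fell by 2.00 (SE 0.32, adjusted p = 1.51e-06). The mean log2 signal ran from 10.35 to 11.68 and from 11.30 to 11.78 for the macrophage list and from 7.73 to 10.21 and from 6.75 to 8.75 for the neutrophil list, at 1 dpn and 188 dpn. The part of these cells in the other changes was not tested.

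Antigen presentation rose with the lymphoid markers. Of 25 genes 16 rose and 4 fell (median 1.00; 9 and 1 with the actin covariate). The class II gene SLA-DRA lay from 8.15 to 11.04 at 1 dpn (median 9.43) and from 11.57 to 13.16 at 188 dpn (median 12.37) and rose by 2.79 (SE 0.23, adjusted p = 8.61e-13). SLA-DQB1 rose by 2.81, SLA-DQA1 by 2.48 and the class I gene SLA-3 by 2.11, while CD74, the class II chaperone, changed by −0.32 (SE 0.22, adjusted p = 0.189). Interferon response genes rose in 11 of 26 and fell in 4 (median 0.28; 2 and 3 with the actin covariate). IRF8, a factor of myeloid and B cells, rose by 1.91 and the chemokine CXCL9 by 1.70, while the kinase EIF2AK2 fell by 2.90 and the antiviral effector MX1 changed by 0.062 (SE 0.32, adjusted p = 0.872). Without HP 25, HP 27 and HP 28, 8 of the interferon genes rose and 9 fell.

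**Figure D4:**
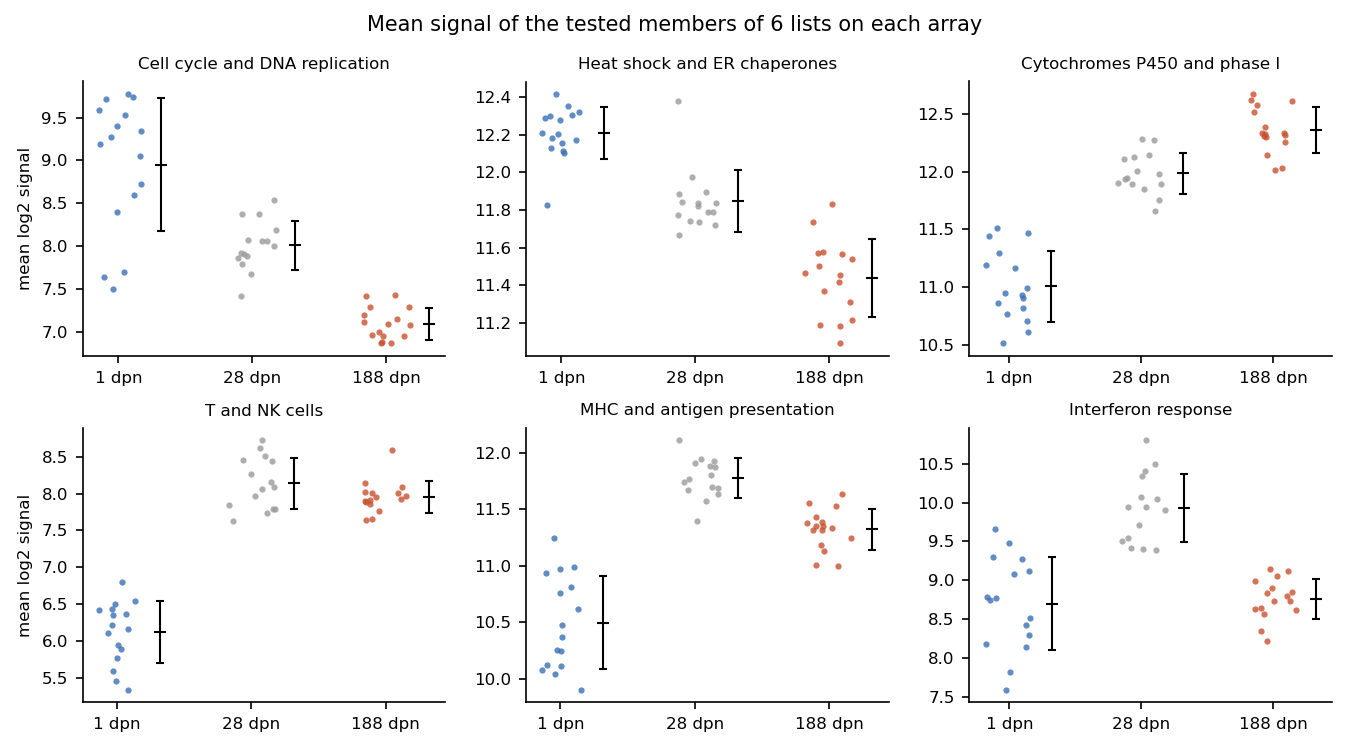
Mean log2 signal over the tested members of 6 gene lists on each array of 1 dpn, 28 dpn and 188 dpn; each point is 1 animal and the bar gives the mean ± SD. The axes do not start at 0. P450, T and NK cell lists separate the newborn from the mature arrays, 3 newborn arrays lie low in the cell cycle list, and MHC and interferon lists are highest at 28 dpn.

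Endothelial and matrix genes changed in both directions, against 32.3% rises and 41.7% falls among all genes. Of 24 endothelial genes 5 rose and 10 fell, against 7 and 7 after quantile normalization and 8 and 6 after centring (median −0.069; 3 and 2 with the actin covariate). The VEGF receptors KDR and FLT1 fell by 2.08 and 1.47 and the hyaluronan receptor LYVE1 by 1.07, while AQP1, a water channel, rose by 1.96 and VWF by 1.22. PECAM1, a general endothelial marker, changed by 0.18 (SE 0.090, adjusted p = 0.0785). Stellate cell, fibroblast and matrix genes rose in 11 of 33 and fell in 8 (median 0.34; 8 and 4 with the actin covariate). Fibulin FBLN1 lay from 7.83 to 10.71 at 1 dpn (median 8.95) and from 11.36 to 12.80 at 188 dpn (median 12.43) and rose by 3.28 (SE 0.21, adjusted p = 4.9e-15), and THY1 of portal fibroblasts rose by 3.03, whereas the collagen COL3A1 fell by 1.49 and POSTN by 1.63. Bile duct genes fell in 5 of 10 and rose in 1 (median −0.28; 1 and 0 with the actin covariate), among them EPCAM, which fell by 2.10, and the duct keratin KRT19, which fell by 1.78. Red cell precursor genes rose in 5 and fell in 3 of 11 (median 0.41), and none passed with the actin covariate. The beta globin HBB fell by 0.98 and the haem enzyme of red cells, ALAS2, rose by 0.79.

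Ribosomal protein genes each changed little, while genes of respiration had a small median change with larger changes in single members. Of 56 cytosolic ribosomal proteins 21 rose and 8 fell, with a median of 0.23 (0 and 5 with the actin covariate), and the changes ran from −0.69 in RPL4 to 0.86 in RPL37. The direction of this group turned with the covariate and with the scaling, as 5 rose and 31 fell after quantile normalization and 46 rose and 1 fell after centring. Of 60 genes of the respiratory chain and ATP synthase 21 rose and 12 fell (median 0.22; 2 and 7 with the actin covariate), against 9 and 25 after quantile normalization and 41 and 8 after centring. Larger single changes were seen in members of the chain, as cytochrome c (CYCS) fell by 1.94 and the complex I subunits NDUFB3 and NDUFS1 by 1.54 and 1.46, and the complex II subunit SDHC rose by 1.19.

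Clock and immediate early genes were called about as often as all genes (74%). Of 8 clock genes 4 rose and 2 fell (median 0.64; 3 and 2 with the actin covariate). DBP, an output factor of the clock, rose by 1.88 and PER1 by 1.50, and ARNTL, their activator, fell by 2.12. No time of day is given for the samples. Immediate early and stress genes rose in 13 of 25 and fell in 6 (median 0.56; 4 and 0 with the actin covariate), among them NFKBIA (rise of 1.58), FOS (1.43) and JUN (1.04), and IER3 with a fall of 1.05.

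Much of the net change was already present at 28 dpn. The mean of the 28 dpn arrays was tested against the midpoint of 1 dpn and 188 dpn. At 28 dpn the actin 3′ to 5′ difference lay nearer 188 dpn, with means of 1.59, 3.66 and 4.10 at 1, 28 and 188 dpn. So did the array median, with means of 7.23, 6.83 and 6.72. The actin covariate was not run for the timing, and the part of these measures in it was not tested. Of 13248 probe-sets 48.9% lay off the midpoint, with 41.6% on the side of 188 dpn and 7.26% on that of 1 dpn. The side was set by the sign of the net difference, called or not, and includes values beyond those of the stage. Among the 3653 rising probe-sets 1880 (51.5%) were nearer the mature level at weaning, 182 (4.98%) nearer the newborn level, and 1591 did not pass the test. Among the 6101 falling probe-sets these numbers were 2935 (48.1%), 339 (5.56%) and 2827. With 1 probe-set per gene 48.8% of all 5383 genes lay off the midpoint, 40.2% on the side of 188 dpn and 8.66% on that of 1 dpn. Counts by list are over members called in the net change, whereas the shares of all 5383 genes include genes not called. The nearest like shares are those of called probe-sets, of which 51.5% of rises and 48.1% of falls were nearer the mature level. The share over called genes was not computed. By lists, 15 of 20 called complement genes, 17 of 23 transcription factors and 7 of 8 T and NK cell genes were nearer the mature level and 0, 2 and 0 nearer the newborn level. In amino acid catabolism 4 of 25 were nearer the mature and 9 nearer the newborn level, and in the cell cycle 37 of 47 did not pass that test.

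Some genes did not run steadily from 1 dpn to 188 dpn. HAMP, the iron hormone hepcidin, had means of 12.49 ± 1.31, 6.88 ± 3.03 and 13.36 ± 1.07 at 1, 28 and 188 dpn (SD, n = 16, 15 and 16). At weaning 11 of 15 arrays had it above background and it ran from 1.93 to 12.97, and its shift off the midpoint was −6.04 (SE 0.60, adjusted p = 2.13e-11), while its net change was 0.88 (SE 0.40, adjusted p = 0.0484). This net call was lost with no filter (adjusted p = 0.0721), with the filter at the background (0.0561), after quantile normalization (0.55, adjusted p = 0.212), with all arrays in 1 fit (0.181), in the rank-sum test (0.0692) and on leaving out most single arrays (up to 0.0922, without HP 31). HPD had means of 13.66 ± 0.70, 10.15 ± 0.33 and 11.11 ± 0.20, with a shift of −2.23 (SE 0.14, adjusted p = 2.52e-17). SLC3A1, a subunit of an amino acid transporter, stood at 6.41 ± 0.52, 5.88 ± 0.81 and 9.15 ± 0.53, lowest at 28 dpn, and its other probe-set fell by 3.35 between 1 dpn and 188 dpn. AFP, S100G and PEG3 had done most of their fall by 28 dpn, with shifts of −2.16, −4.39 and −2.11. At 28 dpn S100G was above background on 4 and PEG3 on 2 of 15 arrays. At 188 dpn AFP was above it on 1, S100G on 4 and PEG3 on 5 of 16 arrays. The sizes of these shifts therefore rest in part on signals below background. In the other direction the interferon genes ISG12(A) and ISG15 had means of 10.36 ± 0.94, 14.21 ± 0.54 and 12.11 ± 0.53, and 9.77 ± 1.22, 13.07 ± 0.97 and 10.63 ± 0.48, highest at 28 dpn. CYP26A1, which degrades retinoic acid, was likewise highest there, at 6.46 ± 1.08, 10.13 ± 0.39 and 8.02 ± 0.82. GNLY also had its highest mean at 28 dpn, with 4.00 ± 0.72, 10.00 ± 0.58 and 9.27 ± 0.67. So did MBL2, with 7.99 ± 1.16, 11.95 ± 1.06 and 10.65 ± 2.06. GNLY, CYP3A29 and MBL2 lay above the midpoint by 3.36, 3.21 and 2.63, and CYP3A29 was highest at 188 dpn.

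**Figure D5:**
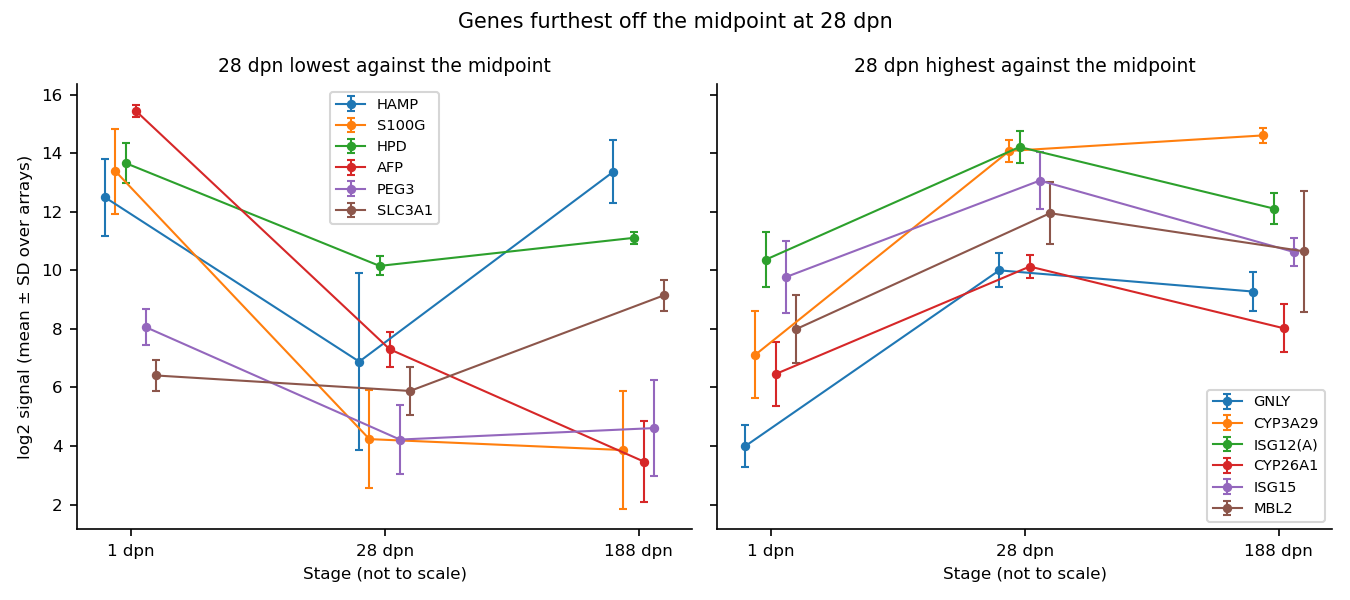
Log2 signal at 1 dpn, 28 dpn and 188 dpn (mean ± SD over 16, 15 and 16 arrays) of the genes that lay furthest below (left) and furthest above (right) the midpoint of 1 dpn and 188 dpn at 28 dpn. HAMP dips at 28 dpn with the widest spread, and ISG12(A), ISG15, CYP26A1, GNLY and MBL2 have their highest means there.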

How the data were processed

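Liver RNA of single animals was hybridised to the Affymetrix porcine genome array. The log2 signals deposited by the authors carry no description of their normalization beyond GCOS version 1.1.1 in the submitters' notes. From the values themselves, each array had been scaled to a 2% trimmed mean of 500 and signals under 1 had been set to 1 before log2, so array medians were left free to differ, and these are not the GCRMA values on which the study's own tests rested. All 63 columns were mapped to samples. Of 24123 probe-sets 188 are controls, and of the other 23935, 10073 had 1 gene symbol in the platform annotation (4 of them from the study's primer list), 198 had several and 13664 had none.

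Probe-sets were tested where no less than 50% of the 1 dpn arrays, or of the 188 dpn arrays, had them above the array median (50th percentile). The stages were compared two-sided with limma 3.58.1 (lmFit and eBayes, R 4.3.3) on the values as deposited, without covariates, and p-values were adjusted after Benjamini and Hochberg (threshold 0.05) over all 13248 probe-sets tested. The fit was tested on simulated data. For the timing, 28 dpn was set against the mean of the other stages in the 47 postnatal arrays. Background was the 95th percentile of 23 controls without target on each array, and "at least" folds are bounds against it. Precision is limited by how many arrays there are. Of 926 genes in 39 lists on the array 831 were tested, with the brightest probe-set for each gene.

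Genes named were the 12 largest changes in each direction among probe-sets without overlap and above background on at least 50% of the arrays of both stages, the 8 largest in each direction that crossed the background, the 6 largest shifts off the midpoint in each direction, and in each list 2 to 5 of the largest called members with the genes that define its role. Other list members were chosen after their values were seen. Members and lists were chosen with earlier results of these data known. Alternatives were other filters, quantile normalization, centring, all arrays in 1 fit, an intensity trend, array weights, a rank-sum test, the actin difference as a covariate, a floor at the background, stricter thresholds, averaging a gene's probe-sets, and arrays left out.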

Additional observations from a re-analysis of the deposited data

How the results depend on the processing

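Against 9754 called probe-sets (3653 rises, 6101 falls), the alternatives that kept the tested probe-sets and added neither covariate nor fold threshold gave 8682 (adjusted p under 0.01) to 9955 calls (all arrays in 1 fit), and leaving out each array in turn gave 9655 to 9781 calls, 3594 to 3675 rises and 6031 to 6113 falls. The filter at the 75th percentile, which tests fewer probe-sets, gave 5536 calls and 2867 falls, and 3929 calls for the timing in place of 6477. The actin 3′ to 5′ difference as a covariate gave 4828 calls, 1630 rises and 3198 falls, of which 4610 were also called without it, and a change of at least 2-fold left 4206 calls, 1209 rises and 2997 falls. Medians of gene lists relative to all genes changed sign as follows. With no filter they were −0.052 for glycolysis and 0.012 for endothelium, and with a gene's probe-sets averaged 0.018 for apolipoproteins. With the filter at the 75th percentile they were −0.045 for acute phase genes, 0.22 for transcription factors, 0.36 for gluconeogenesis and −0.42 for glycolysis, and with the filter at the background −0.076 for glycolysis, 0.0039 for apolipoproteins, −0.0007 for red cell precursors and 0.0021 for bile duct genes. After quantile normalization they were −0.080 for plasma carriers, −0.24 for acute phase genes, −0.24 for glycolysis, −0.010 for the urea cycle, 0.023 for endothelium, −0.19 for ribosomal proteins and −0.23 for the respiratory chain. With the actin covariate they were −0.18 for plasma carriers, −0.17 for acute phase genes, 0.28 for transcription factors, −0.11 for the urea cycle, 0.062 for gluconeogenesis and 0.35 for bile duct genes. Single named genes that were called without this covariate and changed sign under it, none of them passing the test there, were ASS1 (−0.41), CDKN1B (−0.22), CYP1A1 (0.59), DIO1 (0.11), HAMP (−1.42), KDR (0.021), KRT19 (0.33), PDK4 (−0.24), PPARA (0.73), SC5D (−0.0033) and TTR (−0.18). The covariate rises with stage, and the cause of these shifts was not tested. No paired analysis was possible because the labels give neither litters nor replicate numbers shared between stages. The rank-sum test was not run for the timing, which compares 3 stages, and neither was the actin covariate. Low signals limit the size of changes near the background.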
